A study of Homo sapiens with 18 samples.

Results

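RNA levels of 60 genes of ribosome biogenesis were followed through 18 RNA-seq libraries of MDA-MB-231 cells, a human triple negative breast cancer line. The genes were chosen by name, with no threshold on a measured value, as factors of ribosomal RNA (rRNA) transcription, rRNA processing and subunit assembly, many of them known as targets of the transcription factor MYC. Each of the 60 symbols matched 1 of the 57448 gene rows of the count matrix, and all 60 passed the filter on low values (at least 1 CPM, the reads of a gene per 1000000 counted reads, in at least 3 libraries), as did 15587 genes in all. The libraries fall into 6 groups of 3. WT are the parental cells. KO1 and KO2 are GPS2 knockout lines made with Cas9 and separate sets of sgRNAs against exons 2 and 6 of GPS2, selected with puromycin and kept as heterogeneous pools rather than clones, and called KO when pooled. MB231-myrAKT cells (myrAKT) carry a retroviral, membrane-anchored, FLAG-tagged AKT1. KO1+MK and KO2+MK are the same knockout pools after 10 µM MK2206, an allosteric AKT inhibitor, for 4 h, and KO+MK denotes both. The comparator of the drug is labelled untreated, and a treated WT or treated myrAKT group was not analysed here. Nothing in the labels says that the 3 libraries of a group came from separate cultures, so p-values measure only the spread between these libraries, which may be technical.

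Ribosomes are assembled in the nucleolus. RNA polymerase I transcribes a long precursor rRNA, small nucleolar ribonucleoproteins (snoRNPs) guide its chemical modification, and the small subunit processome folds and cleaves its first part. The remaining factors mature the 40S and 60S subunits and hand them to the cytoplasm. Growth factor signalling through AKT and mTOR and the transcription factor MYC are the best known upstream regulators of this programme, and enlarged nucleoli are a classical feature of fast growing tumor cells.

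The libraries held 23419198 to 39319910 counted reads, of which a single member took between 112 and 77787 in a library. VIM and CD44, genes that mark the mesenchymal-like state of this line, stood above 401 CPM in every library, and the luminal and epithelial genes ESR1, PGR and CDH1 stood at or below 1.38 CPM. EPCAM, another epithelial gene, was present at 11.8 to 12.3 CPM in WT and 3.16 to 3.27 CPM in myrAKT, and was called lower in KO (-0.41, edgeR adjusted p = 0.000494) and in myrAKT (-1.90, edgeR adjusted p = 7.54e-10) against WT. By line it was called lower in KO2 (-0.48) and not in KO1 (-0.33, edgeR adjusted p = 0.00116). Its part in the results for the 60 genes was not tested. ERBB2, set down as low for a triple negative line, was not absent, with 79.9 to 93.9 CPM. GPS2 was counted at 4.40, 4.89 and 4.42 CPM in WT, at 4.53, 4.46 and 4.51 CPM in KO1 and at 5.90, 6.09 and 6.14 CPM in KO2. Its RNA count thus overlapped WT in KO1 (log2 fold change -0.04) and lay above WT in KO2 (0.40), and neither difference was called. The count covers the whole gene and does not resolve the targeted exons, and the gene's exons overlap those of a neighbour, so it does not check the knockout labels. AKT1 reads, which include those of the introduced coding sequence, rose in myrAKT by 0.77 on the log2 scale against WT (SE 0.0443, edgeR adjusted p = 4.27e-09).

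Promoter stretches are shown for 6 members because many of the genes are known targets of MYC, whose dimer with MAX binds the palindrome CACGTG (the E-box). Each stretch is the last 150 bases before an annotated start, read 5′ to 3′ on the strand of the gene, from RefSeq on GRCh38.p14. Capitals mark CACGTG, which reads the same on both strands. UTP4, UTP20 and DDX21 hold the E-box within 31 bases of the start, NOP10 holds it 11 bases before the start, and the NOP56 and RRN3 stretches hold none.
UTP4, chr16:69132499-69132648, plus strand: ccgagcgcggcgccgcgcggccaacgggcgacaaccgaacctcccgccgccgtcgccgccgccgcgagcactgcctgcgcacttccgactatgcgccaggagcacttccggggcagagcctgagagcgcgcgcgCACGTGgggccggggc
UTP20, chr12:101279955-101280104, plus strand: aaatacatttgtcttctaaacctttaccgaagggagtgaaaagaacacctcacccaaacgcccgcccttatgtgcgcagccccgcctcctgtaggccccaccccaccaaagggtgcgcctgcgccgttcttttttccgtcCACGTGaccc
DDX21, chr10:68956497-68956646, plus strand: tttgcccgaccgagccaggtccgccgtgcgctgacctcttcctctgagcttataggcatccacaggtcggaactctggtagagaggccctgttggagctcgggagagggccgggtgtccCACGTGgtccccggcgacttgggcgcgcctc
NOP10, chr15:34343137-34343286, minus strand: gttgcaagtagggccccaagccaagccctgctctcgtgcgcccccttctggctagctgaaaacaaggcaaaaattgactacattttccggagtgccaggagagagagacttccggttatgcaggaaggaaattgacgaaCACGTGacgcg
NOP56, chr20:2652482-2652631, plus strand: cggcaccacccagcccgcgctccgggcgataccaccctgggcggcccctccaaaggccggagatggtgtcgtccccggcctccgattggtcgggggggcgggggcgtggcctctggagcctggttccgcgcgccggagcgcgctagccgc
RRN3, chr16:15094336-15094485, minus strand: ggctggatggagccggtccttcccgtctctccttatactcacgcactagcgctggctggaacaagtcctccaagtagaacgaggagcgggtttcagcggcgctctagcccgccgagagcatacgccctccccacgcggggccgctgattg

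Over the RefSeq windows of 250 bases before to 50 after each start, 51 of the 60 members had a window, and 23 of these 51 genes (45.1%) held CACGTG in at least 1 window. The same letters were found for 12.2% of the 11024 genes tested that had a window and for 8.77% of all 27305 genes in the table. Of 27 E-boxes in members' windows, 22 began at or after the position 40 bases before the start. CCGGAAGT, the core bound by ETS factors, was searched on both strands and held by 25.5% of the members and 9.6% of the genes tested. CACGCG was held by 35.3% and 22.2%, and ATGGCG, the core bound by YY1, by 31.4% and 21.4%. These matches are descriptions of the letters, not of binding.

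The summed level of the 60 genes was highest in the untreated knockout lines and lowest in myrAKT. It was 7366, 7332 and 7279 CPM in the 3 WT libraries, 10705, 10432 and 10940 in KO1 (mean 10693 ± 254, SD, n = 3) and 9750.2, 9557 and 9831 in KO2 (mean 9713 ± 141). In myrAKT it was 7089.8, 6686 and 6458 CPM. In KO1+MK it was 8040.4, 8807 and 8704 CPM, and in KO2+MK it was 8534, 8078 and 7913 CPM. All untreated knockout libraries stood above all others, the treated knockout libraries lay between them and WT without overlapping either but overlapped between the lines, and all myrAKT libraries lay below WT. Members took 0.734% of counted reads in WT, 1.03% in KO1, 0.956% in KO2, 0.693% in myrAKT, 0.854% in KO1+MK and 0.817% in KO2+MK. CPM is a share of the reads of a library and the pools are mixed, so more RNA per cell and more cells with high RNA cannot be told apart.

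**Figure D1:**
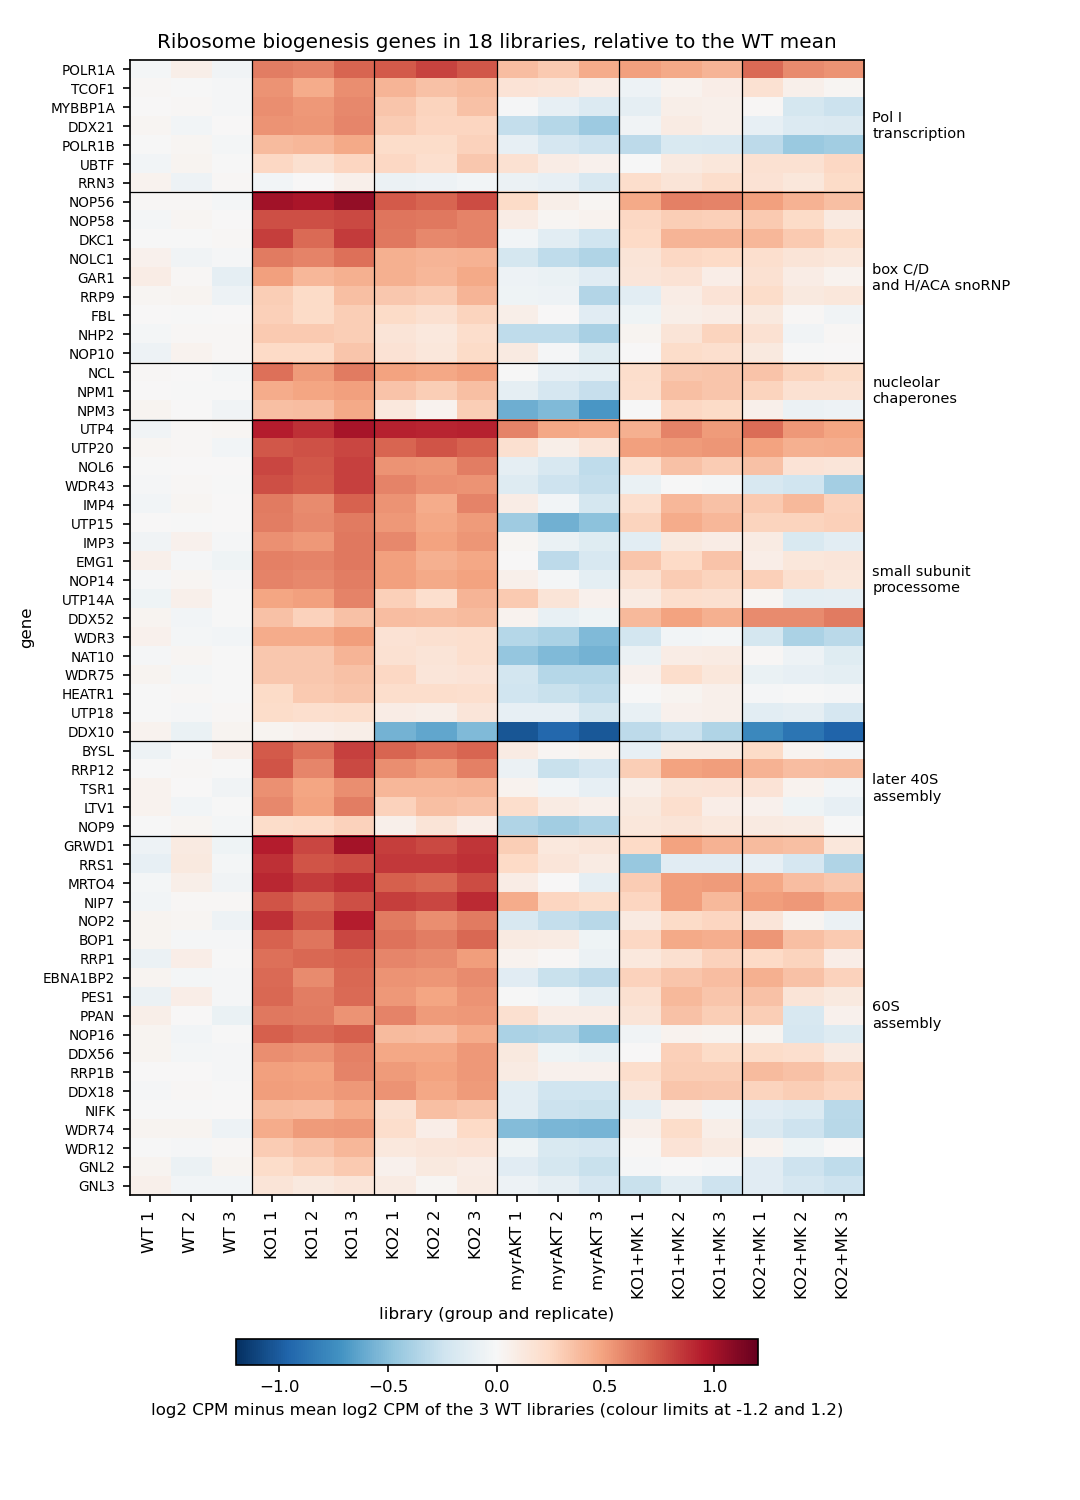
Level of each of the 60 genes (rows, grouped by role) in each of the 18 libraries (columns), as log2 CPM minus the mean of the 3 WT libraries, with red for higher and blue for lower. The KO1 and KO2 columns are red in nearly all rows, the treated columns are paler, and DDX10 and RRN3 stand apart from the other rows.

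Within WT, levels per kilobase of exons spanned 181 CPM per kb for NPM1 to 1.60 CPM per kb for PPAN. NPM1 (nucleophosmin, the most abundant nucleolar chaperone) was followed by NCL (nucleolin) at 97.2, NOLC1 at 78.3 and FBL at 59.1 CPM per kb. NPM1 alone made up 20.6% of the members' summed CPM in WT and 19.5% in both knockout lines. Replicates were close, with a median coefficient of variation over the members of 2.17% in WT, 2.96% in KO1, 2.38% in KO2, 5.13% in myrAKT, 5.48% in KO1+MK and 5.19% in KO2+MK.

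The first question was how these genes differed between the GPS2 knockout pools and the parental cells. None of the groups is a vector or non-targeting control. Loss of GPS2 and the transduction, Cas9 and puromycin selection of the pools therefore cannot be told apart here. Of the 60 members, 44 rose in KO against WT and none fell at an adjusted p of at most 0.001 (edgeR quasi-likelihood test, Benjamini-Hochberg over 15587 genes), where 32.1% of all genes were called, 15.5% higher and 16.6% lower. DESeq2 called 51 members higher and 0 lower (41.4% of all genes called), and at an unadjusted p under 0.05 edgeR also had 58 higher and 0 lower, where 63.9% of all genes passed. The median log2 fold change was 0.49 over the members and -0.0029 over all genes tested. All 6 KO libraries lay above all 3 WT libraries for 57 members, which was so for 29.1% of all genes. With a fold of at least 1.5 added, 17 members rose, against 4.07% of all genes.

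Each role held genes that rose, where 15.5% of all genes were called higher. For RNA polymerase I transcription it was 5 of 7 genes, for the snoRNPs 7 of 9, for the nucleolar chaperones 2 of 3, for the small subunit processome 11 of 17, for later 40S assembly 4 of 5 and for 60S assembly 15 of 19. Role medians lay between 0.385 for the chaperones and 0.55 for 60S assembly.

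Among the polymerase I genes, POLR1A, the largest subunit of the enzyme (minus strand of chromosome 2, 86020216 to 86106155 on hg38), was counted at 136, 144 and 134 CPM in WT, 211, 208 and 223 in KO1 and 230.4, 242 and 232 in KO2. It rose by 0.68 (log2, SE 0.0520, edgeR adjusted p = 1.01e-06) and was the largest change of this role. POLR1B, the second largest subunit, rose by 0.31, UBTF, which binds the rDNA promoter, by 0.23, and TCOF1 (treacle, a cofactor of rDNA transcription) by 0.43. RRN3, the initiation factor that brings polymerase I to the promoter (minus strand of chromosome 16, 15060033 to 15094311), did not follow them. Its levels were 42.7, 39.8 and 41.8 CPM in WT, 40.4, 41.5 and 43.1 in KO1 and 39.5, 39.7 and 40.4 in KO2, which overlap, with a log2 fold change of -0.04 (SE 0.0418, edgeR adjusted p = 0.426).

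In the snoRNP group NOP56, a core protein of box C/D snoRNPs that guide 2′-O-methylation, led. It lies on the plus strand of chromosome 20, 2652593 to 2658393. WT libraries had 189.6, 189.7 and 185 CPM, KO1 libraries 379, 370.2 and 391, and KO2 libraries 314, 306 and 323. Every KO library was far above WT, and NOP56 rose by 0.86 (SE 0.0807, edgeR adjusted p = 4.12e-06). FBL (fibrillarin, the methyltransferase of the same particle) rose by 0.23 and DKC1 (dyskerin, the pseudouridine synthase of H/ACA snoRNPs) by 0.68. NOP10, a small H/ACA protein, had the smallest value of the group at 0.21 and was not called (SE 0.0454, edgeR adjusted p = 0.00207).

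NCL rose by 0.52 and NPM1 by 0.39. NCL went from 873, 872 and 855 CPM in WT to 1375, 1238 and 1336 in KO1 and 1210.1, 1192 and 1222 in KO2. NPM3, a relative of NPM1, had a log2 fold change of 0.26 that was not called (SE 0.0819, edgeR adjusted p = 0.0158). The annotation holds 49 NPM1 pseudogenes whose summed mean count was 4.97% of that of NPM1, and reads that match both NPM1 and a copy were not measured, so its count is uncertain.

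UTP4, a subunit of the first complex to join the nascent precursor rRNA (plus strand of chromosome 16, 69131291 to 69231130), had the largest rise of the 60 genes. It went from 63.3, 65.5 and 66.2 CPM in WT to 125, 119 and 129 in KO1 and to 123 in each KO2 library, by 0.91 (SE 0.0353, edgeR adjusted p = 3.20e-08). UTP20, a very large scaffold of the processome, rose by 0.73 (SE 0.0346, edgeR adjusted p = 7.67e-08). DDX10, a helicase of the same assembly (plus strand of chromosome 11, 108665058 to 108940999), had the lowest value of all members, -0.25, with an SE of 0.162 over lines that differed, and was not called (edgeR adjusted p = 0.213).

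Of the later 40S factors, BYSL (bystin) rose by 0.69 (SE 0.0470, edgeR adjusted p = 5.07e-07), whereas NOP9, at 0.15, was not called (SE 0.0537, edgeR adjusted p = 0.0265). Of the 60S factors, GRWD1, a chaperone of ribosomal protein L3, went from 43.7, 48.9 and 43.99 CPM in WT to 87.3, 79.1 and 91.0 in KO1 and 81.0, 78.7 and 82.4 in KO2. It rose by 0.85 (SE 0.0582, edgeR adjusted p = 5.16e-07). BOP1 and PES1, which form the PeBoW complex with WDR12, rose by 0.67 and 0.57. GNL3 (nucleostemin, a nucleolar GTPase) had the smallest value of this role, 0.09 (SE 0.0382, edgeR adjusted p = 0.0669).

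**Figure D2:**
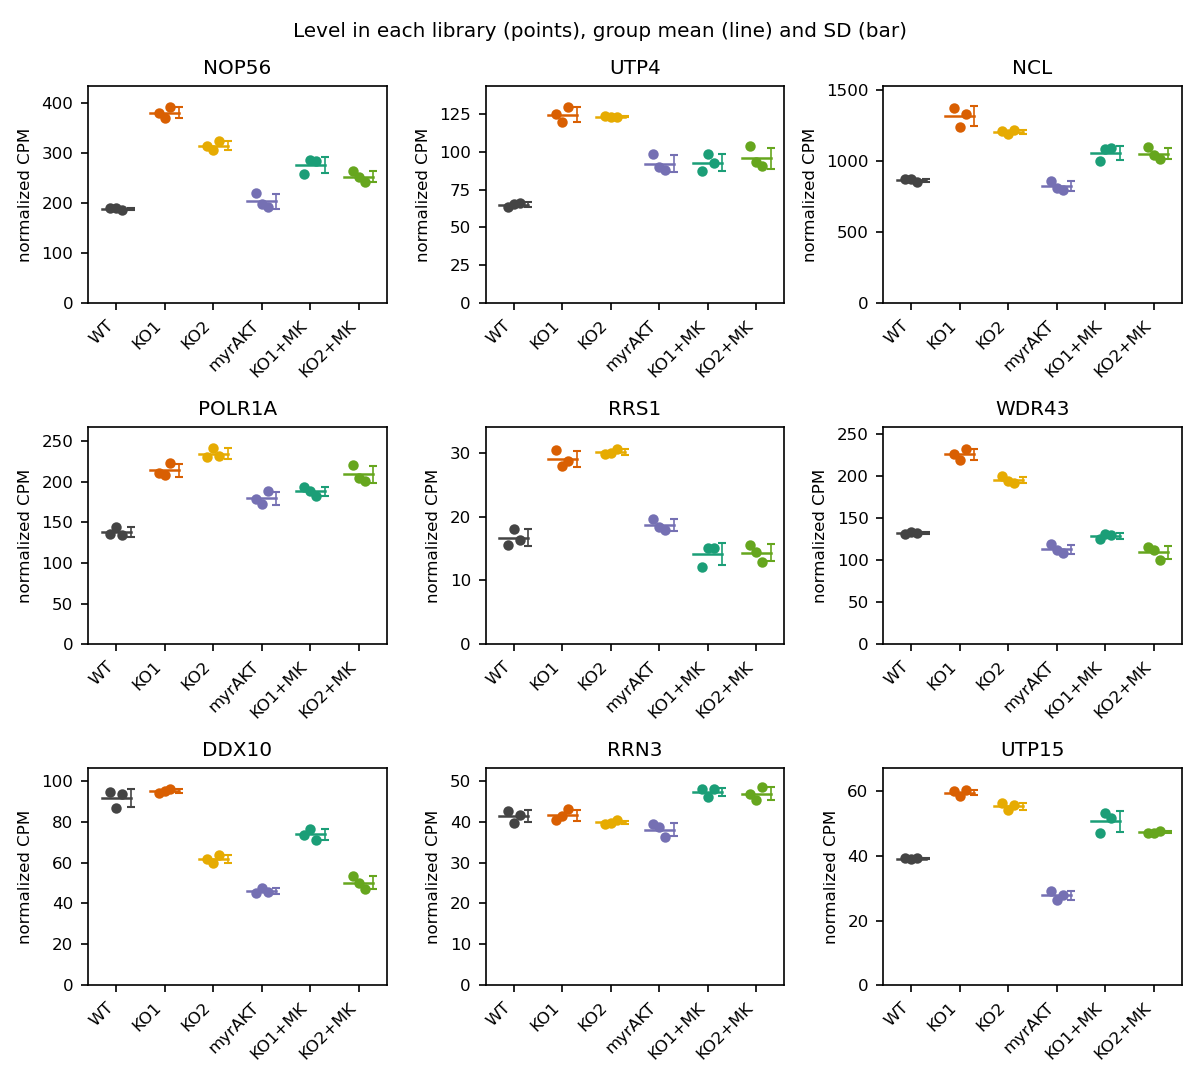
Normalized CPM (linear axes from 0) of 9 members in each library (points) by group, with the group mean (line) and SD (bar, n = 3). NOP56, UTP4, NCL and POLR1A are higher in KO1 and KO2 than in WT, RRS1 and WDR43 return to about the WT level or below with MK2206, DDX10 is low in KO2 and lowest in myrAKT, and RRN3 is highest in the treated groups.

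The lines were then taken apart. KO1 alone had 57 members higher than WT and 0 lower (41.7% of all genes called, 20.5% higher and 21.3% lower), with a median of 0.54, and the 3 without a call were RRN3, DDX10 and GNL3. KO2 alone had 49 higher and 1 lower (43.1% of all genes called, 20.8% higher and 22.2% lower), with a median of 0.41. In KO1, NOP56 rose by 1.00 (log2), UTP4 by 0.92 and GRWD1 by 0.90. In KO2, UTP4 rose by 0.91, RRS1, a 60S factor needed to bring in the 5S RNP, by 0.85, and NIP7, another 60S factor, by 0.84. These comparisons share the WT libraries.

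Compared directly, 13 members were higher in KO1 than in KO2 and none lower (edgeR, 12.6% of all genes called, 7.06% higher and 5.54% lower), while DESeq2 gave 16 higher and 1 lower (13.9% of all genes called), an unadjusted p under 0.05 in edgeR gave 40 and 2 (43.6% of all genes passed), and 8 members were called without KO1 replicate 1 (7.45% of all genes). The median difference over the members was 0.12 on the log2 scale. DDX10 differed most. It had 94.4, 86.7 and 93.6 CPM in WT, 93.8, 94.98 and 95.7 in KO1 and 61.8, 59.5 and 63.5 in KO2. KO1 libraries lay at the WT level and all KO2 libraries lay below both. The log2 difference of KO1 from KO2 was 0.61 (SE 0.0330, edgeR adjusted p = 5.50e-10), and against WT the value was 0.03 for KO1 (edgeR adjusted p = 0.456) and -0.58 for KO2 (edgeR adjusted p = 3.64e-08). DDX10 was the only member called lower in either line. WDR74, a 60S factor, and NOP16, another, followed with differences of 0.30 and 0.29.

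The next comparison asked how these genes differed between myrAKT, with an active AKT1 and unedited GPS2, and WT. No group carries an empty retroviral vector, so the active AKT1 and the transduction cannot be told apart. More of the members fell than rose. In myrAKT against WT, 3 members rose and 17 fell (edgeR, 30.0% of all genes called, 12.7% higher and 17.3% lower). The share of members called, 33.3%, was thus near that of all genes. The median was -0.11 over the members and 0.0163 over all genes tested, and the spread ran from -0.998 to 0.50. This comparison shares the WT libraries with the knockout comparisons.

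The 3 genes that rose were UTP4, POLR1A and NIP7. UTP4 stood at 98.5, 89.7 and 88.3 CPM in myrAKT and rose by 0.50 (SE 0.0475, edgeR adjusted p = 7.32e-07). POLR1A stood at 178, 172 and 188 CPM and rose by 0.37 (SE 0.0490, edgeR adjusted p = 1.72e-05). NIP7 stood at 66.4, 58.3 and 56.7 CPM against 47.6 to 49.3 in WT and rose by 0.31 (SE 0.0555, edgeR adjusted p = 0.000329). All 3 were above every WT library.

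DDX10 fell most. Its myrAKT libraries had 45.02, 47.7 and 45.3 CPM, below every WT, KO1 and KO2 library, and it fell by 0.998 on the log2 scale (SE 0.0473, edgeR adjusted p = 6.14e-10). NPM3 fell from 37.8, 37.1 and 35.7 CPM to 24.6, 25.5 and 22.7, a log2 fold change of -0.61 (SE 0.0547, edgeR adjusted p = 3.63e-07). WDR74 fell from 29.2, 29.2 and 27.4 CPM to 19.9, 19.5 and 19.4, a log2 fold change of -0.55 (SE 0.0541, edgeR adjusted p = 9.59e-07). The other 14 that fell lay between -0.53 and -0.20, with 7 of the 17 in the small subunit processome and 5 in 60S assembly. NOP56 and NCL were not called, at 0.10 and -0.08 (edgeR adjusted p = 0.0933 and 0.166), nor was NPM1 at -0.20 (edgeR adjusted p = 0.00407) or FBL at -0.02 (edgeR adjusted p = 0.706), whose sign turned with the scaling.

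KO and myrAKT were also compared directly, with no library shared between the groups. Of the 60 members, 54 were higher in KO and none lower (edgeR, 35.8% of all genes called, 19.1% higher and 16.7% lower), with a median of 0.59. DESeq2 gave 57 higher and 0 lower (44% of all genes called), and an unadjusted p under 0.05 in edgeR gave 59 and 0, where 66.3% of all genes passed. All 60 estimates were above 0, and for 59 members every KO library lay above every myrAKT library, against 30.6% of all genes. UTP15, a partner of UTP4 in the same complex, differed most. It had 60.01, 58.6 and 60.3 CPM in KO1, 56.3, 54.1 and 55.8 in KO2, and 29.1, 26.4 and 28.0 in myrAKT, with WT in between at 39.3, 39.01 and 39.4. The log2 difference was 1.03 (SE 0.0484, edgeR adjusted p = 2.06e-08). NOP2, a methyltransferase of the large subunit rRNA, and NOP16 followed at 0.99 and 0.95. The 6 members without a call were RRN3, UBTF, UTP14A, NOP10, LTV1 and DDX10, and DDX10 had a value of 0.75 with an SE of 0.167 (edgeR adjusted p = 0.00206).

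**Figure D3:**
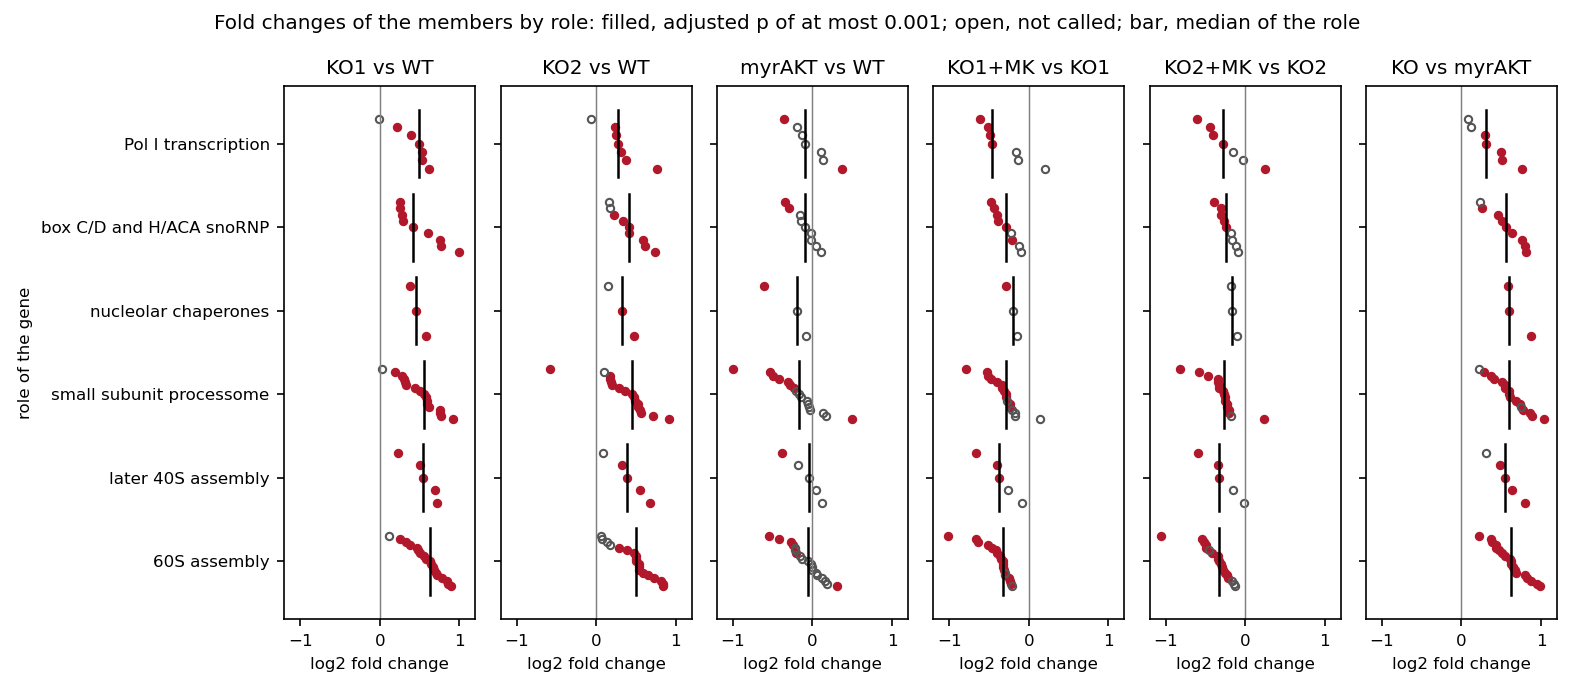
Log2 fold changes (horizontal axes) of the 60 genes by role (vertical axis) in 6 comparisons, with filled points for genes called at an adjusted p of at most 0.001, open points for the others and a bar at each role's median. Nearly all points lie to the right of 0 for KO1 and KO2 against WT (medians over the members 0.54 and 0.41), mostly to the left for the drug (-0.32 and -0.28), and on both sides for myrAKT (-0.11).

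The drug was then added to the knockout pools. After MK2206, 41 members fell and 1 rose in KO+MK against KO (edgeR, 21.5% of all genes called, 12.8% higher and 8.75% lower). These calls are from both lines fitted as 1 group. With a factor for the line, 52 fell and 2 rose (36.3% of all genes called). The median was -0.30 over the members and -0.0031 over all genes tested, and 58 of 60 estimates were below 0. For 46 members all 6 treated libraries lay below all 6 untreated ones, against 13.4% of all genes. By role, 4 of 7 polymerase I genes, 6 of 9 snoRNP genes, 1 of 3 chaperones, 12 of 17 processome genes, 3 of 5 later 40S factors and 15 of 19 60S factors fell. With a fold of at least 1.5 added, 5 members fell, against 2.03% of all genes. The treated libraries were also shallower, with 23419198 to 29939536 counted reads against 35627965 to 39319910 for untreated KO, and held 1.29 to 1.59% mitochondrial reads against 1.53 to 1.93%. The part of depth in these results was not tested.

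RRS1 fell most. It had 30.5, 28.0 and 28.7 CPM in KO1, 29.9, 29.9 and 30.6 in KO2, 12.1, 15.1 and 15.1 in KO1+MK and 15.6, 14.5 and 12.9 in KO2+MK. Treated libraries fell to or below the WT range of 15.5 to 18.1 CPM, by 1.03 on the log2 scale (SE 0.0578, edgeR adjusted p = 2.42e-08). WDR43, a partner of UTP4 and UTP15, had 226, 219.7 and 233 CPM in KO1 and 199.6, 194 and 192 in KO2, then 125, 131 and 130.4 in KO1+MK and 116, 112 and 99.9 in KO2+MK, against 131 to 134 in WT. It fell by 0.80 (SE 0.0683, edgeR adjusted p = 5.75e-07). BYSL fell by 0.63 (SE 0.0491, edgeR adjusted p = 2.82e-07) and POLR1B by 0.61 (SE 0.0540, edgeR adjusted p = 7.74e-07).

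Abundant members differed in how far they fell. DDX21, a nucleolar RNA helicase, went from a mean of 589.6 CPM in KO to 426 in KO+MK and fell by 0.45 (SE 0.0677, edgeR adjusted p = 9.18e-05), and NOLC1, a snoRNP chaperone, fell by 0.32 (SE 0.0463, edgeR adjusted p = 6.94e-05). NOP56 fell by 0.37 (SE 0.0640, edgeR adjusted p = 0.000280), NCL by 0.24 (SE 0.0392, edgeR adjusted p = 0.000211) and FBL by 0.20 (SE 0.0325, edgeR adjusted p = 0.000211). NPM1, at -0.12, was not called (SE 0.0425, edgeR adjusted p = 0.0267). POLR1A, at -0.15, was not called either (SE 0.0510, edgeR adjusted p = 0.0228), nor was UBTF, at -0.08 (SE 0.0386, edgeR adjusted p = 0.104). RRN3 was the gene called higher in the fit without a factor for the line. It rose from 39.5 to 43.1 CPM in KO to 45.4 to 48.6 CPM in KO+MK, by 0.23 (SE 0.0317, edgeR adjusted p = 3.92e-05). Its treated libraries all lay above its untreated ones, although 3 annotated RRN3 pseudogenes had a summed mean count of 7.39% of its own.

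Both lines responded. In KO1, 43 members fell and 0 rose (edgeR, 19.2% of all genes called, 10.9% higher and 8.26% lower), with a median of -0.32. DESeq2 gave 49 lower and 0 higher (22.1% of all genes called), and an unadjusted p under 0.05 in edgeR gave 56 lower and 2 higher, where 52.6% of all genes passed. In KO2, 42 fell and 2, RRN3 and DDX52, rose (21.9% of all genes called, 13.1% higher and 8.78% lower), with a median of -0.28, and without KO2 replicate 1 the number of members called was 26 (14.2% of all genes) and without KO2+MK replicate 2 it was 27 (13.8% of all genes). DDX52, a helicase of the processome, rose in KO2 by 0.23 (SE 0.0344, edgeR adjusted p = 5.88e-05). RRS1 fell by 1.01 in KO1 and by 1.05 in KO2, and WDR43 by 0.79 and 0.82. DDX10, which was not called with the lines pooled (-0.32, SE 0.159, edgeR adjusted p = 0.120), fell within each line, by 0.34 in KO1 (SE 0.0365, edgeR adjusted p = 8.95e-06) and by 0.28 in KO2 (SE 0.0482, edgeR adjusted p = 0.000251). The difference of the drug effect between the lines was tested as an interaction, and no member was called (edgeR, 0.0128% of all genes called, and 0 members with DESeq2). At an unadjusted p under 0.05, 5 members had a more negative value in KO1 and 0 in KO2, where 8.03% of all genes passed. The smallest adjusted p of a member was 0.354, for NOLC1, and the differences ran from -0.19 to 0.15 on the log2 scale.

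Treated knockout cells were also set against untreated WT, and these values share libraries with the comparisons above. In KO+MK against WT, 19 members were higher and 2 lower (edgeR, 32.0% of all genes called, 16.0% higher and 16.1% lower), with a median of 0.11. The share of members called, 35.0%, was near that of all genes. Without any 1 of the 3 WT libraries the counts were 12 higher and 0 lower, with 20.1 to 21.8% of all genes called. UTP4 was still above WT by 0.53 (SE 0.0529, edgeR adjusted p = 5.54e-06), POLR1A by 0.52 (SE 0.0589, edgeR adjusted p = 1.45e-05) and DDX52 by 0.51 (SE 0.0533, edgeR adjusted p = 8.23e-06). POLR1B was below WT, with 55.4, 56.5 and 54.7 CPM in WT and 40.9 to 49.04 CPM in the 6 treated libraries, and a log2 fold change of -0.31 (SE 0.0583, edgeR adjusted p = 0.000604). GNL3 was lower by a log2 fold change of -0.21 (SE 0.0415, edgeR adjusted p = 0.000863).

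MYC RNA, measured beside the members, ordered the groups by their means as the summed members did, except for WT. In the sum WT stood below both knockout lines, treated or not, and for MYC it stood below untreated KO1 only. MYC had 295, 268 and 279 CPM in WT, 320.5, 324 and 335 in KO1, 225, 216 and 242 in KO2, 136, 143 and 118 in myrAKT, 164, 204 and 205 in KO1+MK and 184, 159.6 and 146 in KO2+MK. KO1 libraries lay above WT and KO2 libraries below it, although the members' sum was above WT in both. Against WT, MYC rose in KO1 by 0.20 (SE 0.0365, edgeR adjusted p = 0.000212) and fell in KO2 by 0.31 (SE 0.0431, edgeR adjusted p = 3.04e-05), and the lines differed by 0.51 (SE 0.0365, edgeR adjusted p = 1.91e-08). It fell in myrAKT by 1.09 (SE 0.0602, edgeR adjusted p = 2.80e-09) and with the drug by 0.62 (SE 0.121, edgeR adjusted p = 0.000742). MAX, its partner, rose with the drug by 0.18 (SE 0.0320, edgeR adjusted p = 0.000403) in the pooled lines and by 0.22 in KO2 alone (edgeR adjusted p = 0.000229), and its value of 0.13 in KO1 alone was not called (edgeR adjusted p = 0.0135). MAX also rose in KO1 against WT by 0.18 (edgeR adjusted p = 0.000249), was not called in KO2 (0.15, edgeR adjusted p = 0.00181) or in KO (0.16, edgeR adjusted p = 0.00239) against WT, and rose in KO+MK against WT by 0.33 (edgeR adjusted p = 3.98e-05).

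**Figure D4:**
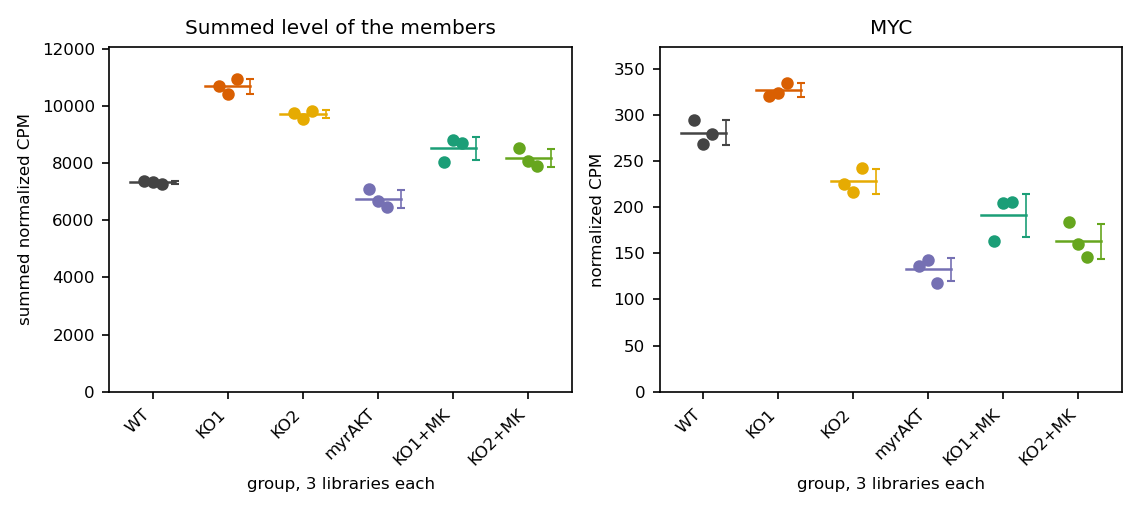
Left, summed normalized CPM of the 60 genes in each library, and right, normalized CPM of MYC, both on linear axes from 0, by group, with points for libraries, a line at the mean and a bar for the SD (n = 3). The sum is above the WT mean of 7326 in both knockout lines, while MYC is above WT in KO1 and below it in KO2.

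Members with and without an E-box in the window are set side by side here, with no test of their difference. The 23 genes with CACGTG had a median log2 fold change of 0.43 in KO against WT, with 16 called higher, and the 28 genes with a window but without it had 0.42, with 19 called higher. With the drug the medians were -0.29 and -0.32, with 18 of 23 and 16 of 28 called lower. Over all genes, 15.5% were called higher in KO against WT and 8.75% lower with the drug (8.26% in KO1 and 8.78% in KO2). In KO1 alone 20 of 23 and 17 of 28 were called lower with the drug, and in KO2 alone 18 of 23 and 18 of 28. Of the genes whose promoters are printed above, UTP4 and UTP20 rose with an E-box, NOP56 rose without one, NOP10, with 2 E-boxes in its window, and DDX21, with an E-box, were not called (0.40 for DDX21, edgeR adjusted p = 0.00102), and RRN3, without one, was not called. By line, DDX21 rose in KO1 by 0.53 and in KO2 by 0.27, and NOP10 rose in KO1 by 0.25 and was not called in KO2 (0.17, edgeR adjusted p = 0.00187).

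A set of 8 members (NOP56, NOP58, DKC1, NCL, WDR43, TSR1, PPAN and GNL3) carry 25 named snoRNA genes within their bounds on the same strand, since many snoRNAs are cut from introns of genes of this process. Of these 8 hosts, 7 rose in KO against WT, with a median of 0.60, against 37 of 52 other members and a median of 0.43, where 15.5% of all genes rose. The hosted small RNAs themselves, apart from SNORA75 in NCL, were nearly uncounted, at no more than 383 reads for any of them over the 18 libraries. For SNORA75 another gene of the same name was read, so the count of the one in NCL was not taken. With the drug 7 of the 8 fell, with a median of -0.36, against 34 of 52 and a median of -0.29, where 8.75% of all genes fell. In KO2 alone 6 of the 8 hosts and 36 of the other 52 fell, where 8.78% of all genes did. No difference between hosts and other members was tested.

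Reads of some members cannot be assigned with certainty. For 15 members at least 10% of exonic bases lie in exons of another gene, most for IMP3 (58.1%), EMG1 (55.5%) and PPAN (49.2%), and how strand was used in counting is not given in the sources used here. In KO against WT, 11 of these 15 rose (median 0.45), as did 33 of the other 45 (median 0.50), where 15.5% of all genes rose.

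A wider list of 98 other genes of ribosome biogenesis, of which 97 passed the filter, was set beside the members. In KO against WT 57 of the 97 rose and 1 fell (59.8% called, against 32.1% of all genes), with a median of 0.33. In myrAKT against WT 7 rose and 15 fell, with a median of -0.03, and the share called, 22.7%, was below the 30.0% of all genes. With the drug 1 rose and 32 fell (34.0% called, against 21.5% of all genes), with a median of -0.15. By role in KO against WT, 5 of 11 polymerase I factors, 19 of 34 small subunit factors, 24 of 40 60S factors and 9 of 12 exosome genes rose. Among all genes tested 15.5% rose. DHX37, a helicase of the processome, went from a mean of 29.0 CPM in WT to 55.9 in KO and rose by 0.93 (SE 0.0784, edgeR adjusted p = 2.00e-06). POLR1G, a polymerase I subunit, rose by 0.91 (SE 0.0870, edgeR adjusted p = 4.90e-06) and EXOSC6, a subunit of the RNA exosome that trims rRNA ends, by 0.77 (SE 0.119, edgeR adjusted p = 0.000176). EFL1, a GTPase that acts on nearly finished 60S subunits, was the gene that fell, by 0.28 (SE 0.0473, edgeR adjusted p = 0.000313). In direct comparison with myrAKT, 67 of the 97 were higher in KO and 1 lower, 70.1% of the list against 35.8% of all genes.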

How the data were processed

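RNA was measured in 18 libraries of MDA-MB-231 cells, 3 for each of 6 groups, which were taken from the sample labels. The authors depleted ribosomal RNA (Kapa RNA HyperPrep with RiboErase), sequenced 75-base paired ends on NextSeq, and used FastQC, Trim Galore, HISAT2 on hg38 and featureCounts. The deposited unit is the count, the reads the authors assigned to each gene, with no normalization. Tool versions, the annotation, the strand setting and the rule for reads in overlapping genes are not given in the sources used here. Counts ranged from 23419198 to 39319910 per library, 15061 of 57448 genes had none, and replicates differed beyond counting error (mean chi-square per gene 2.26 to 11.6), so none was a duplicate of another. Intervals from counts would cover counting error only.

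The 60 members and 98 other genes were matched by symbol through GENCODE release 44, which held 56948 of the rows. The members and lists were chosen with earlier results of these data known. The 15587 genes that reached 1 CPM in 3 or more libraries were tested with edgeR 4.0.16 in R 4.3.3 (TMM normalization and quasi-likelihood test on the libraries compared, Benjamini-Hochberg adjustment over all of them) and called at an adjusted p of at most 0.001 with no minimum fold. For KO, both knockout lines were fitted as 1 group, a choice made here that gives 6 libraries. The study's methods name a KO condition with 3 replicates per condition. SE is the log2 fold change divided by the square root of its F statistic. CPM values shown were scaled by TMM over all 18 libraries. Promoter windows and their letters came from RefSeq (GRCh38.p14), and gene positions from GENCODE. Python 3.11.15 served for tables and figures, with pandas 2.3.3, numpy 2.4.6 and matplotlib 3.10.9. The edgeR test was first run on simulated counts in which the changed genes were known. This was done for KO against WT, myrAKT against WT and KO+MK against KO, and not for the other comparisons or DESeq2.

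Members named in the text were the 3 largest rises and falls called in each comparison (all of them where 5 or fewer were called), the highest and lowest of each role in KO against WT, a fixed set (NOP56, FBL, NCL, NPM1, DKC1, POLR1A, POLR1B, RRN3, UBTF, TCOF1, BOP1, PES1, UTP20), and members with shared exons or copies where their counts are used, with MYC, MAX, GPS2 and AKT1 as reference genes. From the other list the 3 largest rises and falls called in KO against WT were named. DDX10 in comparisons beyond this rule, DDX21 and NOLC1 with the drug, EPCAM, members without a call and snoRNA hosts were chosen after their values were seen. Alternatives were DESeq2 1.42.0, other size factors (DESeq2, upper quartiles, library totals), a looser filter (any gene with 1 count) and a stricter one (10 counts in all libraries), protein-coding genes only, all 18 libraries in 1 fit, a factor for the replicate number or for the line, an adjusted p of 0.05, a fold of at least 1.5, and fits that left out 1 library at a time.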

Additional observations from a re-analysis of the deposited data

Results flagged for a closer look

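For 13 members the lines KO1 and KO2 differed by the direct test (edgeR adjusted p of at most 0.001, 12.6% of all genes called), each with the higher level in KO1. The number was 29 with a filter of 1 count (8.12% of all genes called). It was 22, of which 1 was lower, with a replicate block (17.0%), and DESeq2 gave 16 higher and 1 lower (13.9%). DDX10 differed by 0.61 on the log2 scale, and it is the one of the 13 whose values against WT had opposite signs in the lines, 0.03 in KO1 and -0.58 in KO2. The KO1 value was not called and was -0.001 with library totals, so its sign is not settled. The differences of the others were 0.30 for WDR74, 0.29 for NOP16, 0.27 for DDX21, 0.26 for WDR3, 0.26 for NOP56, 0.25 for NOP2, 0.22 for MYBBP1A, 0.21 for NOL6, 0.20 for WDR43, 0.20 for NOLC1, 0.19 for WDR12 and 0.16 for NAT10, and each of these 12 had a fold change above 0 against WT in both lines. MYC RNA was also higher in KO1 than in KO2, by 0.51, and its part in these differences was not tested.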

How the results depend on the processing

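The direction of the members' median held in the 11 comparisons under every alternative run, and so did the side of most calls where there were calls. With a fold of at least 1.5 added, the number of members called (in parentheses, the share of all genes) went down to 17 for KO (12.7%), 24 for KO1 (13.9%), 13 for KO2 (16.7%) and 2 for myrAKT (13.8%) against WT, the last both lower, 29 for KO against myrAKT (16.2%), 5 for KO+MK against KO (6.53%), 6 and 4 for the drug in KO1 (5.01%) and KO2 (7.06%), 0 for KO+MK against WT (15%) and 1 for KO1 against KO2 (2.62%). At an adjusted p of at most 0.05 it was 35 for myrAKT against WT, 33 for KO+MK against WT and 36 for KO1 against KO2, where 54.4%, 59.7% and 34.1% of all genes were called. With a filter of 1 count, KO1 against KO2 had 29 calls (8.12% of all genes). DESeq2, the other size factors, protein-coding genes only and all 18 libraries in 1 fit left every total of members called within 1.5 times its value in the report. Small counts in 1 direction moved more. For KO+MK against WT the 2 lower became 4 with all 18 libraries in 1 fit and 1 with library totals. The factor for the line was run for KO+MK against KO only, and gave 54 calls (36.3% of all genes). Fits that left out 1 library gave 37 to 50 calls for KO against WT (21.8 to 31.8% of all genes). They gave 46 to 55 for KO against myrAKT (24.5 to 35.8%) and 38 to 43 for KO+MK against KO (17.5 to 19.9%). KO2+MK against KO2 went from 26 (without KO2 replicate 1, 14.2%) to 48 (25.4%). KO+MK against WT went from 12 (without any 1 WT library, 20.1 to 21.8%) to 21 (29.6%). KO1 against KO2 went from 8 (without KO1 replicate 1, 7.45%) to 14 (9.86 or 11.3%). The cause of these shifts was not tested beyond the smaller number of libraries or the stricter rule.

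Libraries with the same replicate number had correlations of their deviations from -0.45 to 0.30. In 0 of 13 group pairs did all 3 pass 0.1, and in 0 did every library correlate best with its own number. No pairing by number was seen, but noise of single libraries could hide one. A replicate block gave 38 calls for KO against WT (23.9% of all genes) and 36 for KO+MK against KO (16.9%). It gave 22 for KO1 against KO2 (17.0%), which was the count it moved by over 1.5 times.

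For the genes named singly, 1974 of 2089 alternative values kept direction and call, 79 lost the call, 28 gained it and 8 changed sign, none of which was a call. DDX10 in KO1 against WT was -0.001 with library totals. FBL in myrAKT against WT was 0.0192 with upper quartiles, 0.0204 with library totals and -0.0761 to 0.0267 with 1 library left out. With 1 library left out, MYC in KO against WT ran from -0.0985 to 0.039 and GPS2 in KO1 against WT from -0.0654 to 0.0252.

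The hosted snoRNAs, apart from SNORA75 in NCL, whose count was not taken, were nearly uncounted, for which the cause was not tested. Strand and overlap rules are not given, which limits the members that share exons.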
